A study of Mus musculus with 8 samples.

Results

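Chemokines are small secreted proteins that steer the movement of leukocytes through G protein-coupled receptors on their surface. They are grouped by the spacing of their first cysteines into CC (Ccl), CXC (Cxcl) and CX3C (Cx3cl) ligands, whose receptors carry the matching names, while atypical receptors (Ackr) bind chemokines without the usual G protein signal. In tumours, Ccr2 and its ligands are known for drawing in monocytes, Ccr7 for carrying dendritic cells towards lymph nodes, and Cxcr3 with Cxcl9 and Cxcl10 for the entry of T cells. The family described here was taken by symbol: all protein-coding genes of the count table whose name begins with Ccl, Cxcl, Cx3cl, Ccr, Cxcr, Cx3cr or Ackr followed by a digit. It held 58 of the 55450 genes, namely 36 ligands, 18 receptors and 4 atypical receptors.

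RNA was sequenced from 4 PERK knockout tumours, numbered 1 to 4, and 4 scramble tumours, numbered 2 to 5. PERK, encoded by Eif2ak3, senses unfolded protein in the endoplasmic reticulum and then damps protein synthesis by phosphorylating eIF2-alpha. Both groups grew from B16F10, a pigmented mouse melanoma line, of which 150000 cells were placed under the skin of wild-type C57BL6 mice aged 6 weeks, so the hosts of both groups carried intact PERK. Tumours were taken on day 17 and digested with liberase and DNase, and cells bearing c-Kit, a receptor of blood cell precursors, mast cells and melanocytes, were pulled out with magnetic beads, a step that enriches and does not sort. Libraries were strand-specific, made from 100 ng of RNA and read as pairs of 105 bases. Whether each tumour came from its own mouse, and whether each injected line was a single clone, is not given in the sources used here, so p-values measure the spread between these tumours.

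Library totals ran from 29006949 to 47530393 counts in PERK knockout tumours and from 44950033 to 56697163 counts in scramble tumours. Levels are in CPM, each count divided by its TMM-scaled library size, and a floor of 3 counts stood at 0.0515 to 0.100 CPM. Such floors cover counting error only. Eif2ak3 was at 7.73 to 22.7 CPM in the PERK knockout libraries and at 48.3 to 59.2 CPM in the scramble libraries, so the groups did not overlap at the targeted gene (log2 change -1.97, SE 0.31, edgeR adjusted p = 0.00371). Within their groups, PERK knockout library 4 was highest at 15 of the 18 genes called below, and scramble library 4 was lowest at all 18. Markers of several cell types also differed between the groups. The 11 leukocyte markers used were Ptprc, Cd53, Coro1a, Laptm5, Lcp1, Cd52, Arhgdib, Cytip, Spi1, Tyrobp and Fcer1g. Of these 10 rose, all but Arhgdib, which averaged 272 CPM in PERK knockout and 238 CPM in scramble tumours. Ptprc averaged 53.1 and 7.23 CPM. The geometric mean of the 11 was 26.2 to 98.7 CPM in PERK knockout tumours against 3.51 to 8.45 CPM in scramble tumours. Of 8 epithelial markers, 8 rose (summed level 84.6 to 219 CPM in PERK knockout against 3.21 to 5.84 CPM in scramble tumours), and of 10 melanocyte markers 6 fell (16358 to 19963 CPM in PERK knockout against 24682 to 25258 CPM in scramble tumours). In RNA of mixed cells, fewer cells of a type and less RNA per cell cannot be told apart.

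Chemokines and their receptors were mostly higher in PERK knockout tumours. Of the 58 family members, 34 passed the filter on low counts, and 18 of these rose at an edgeR adjusted p under 0.05, the threshold for a call throughout. Over all 16662 genes tested, 7.66% were called higher. None of the 34 was called lower by edgeR, DESeq2 or limma-voom, where edgeR called 6.13% of all genes lower. At an unadjusted p under 0.05, 0 of the 34 had a negative change. The share of all genes at that looser threshold is not given here. The 19 members whose lowest PERK knockout library lay above their highest scramble library compare with 10.2% of all genes tested, and 0 members did so in the other direction, against 11.1% of all genes. The median log2 change was 2.39 over the 34 members and -0.02 over all genes tested. By class, 9 of 15 CC ligands, 3 of 10 CXC ligands, the single CX3C ligand and 5 of 7 receptors rose, while the 1 tested atypical receptor was not called. Passing the filter was not even between the groups, since 3 members passed in 4 of 4 PERK knockout libraries and in fewer scramble libraries. These were Ccl4, Ccl24 and Cx3cl1. Of them Cx3cl1 was called, and Cx3cl1 and Ccl24 are among the 19 members without overlap.

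**Figure D1:**
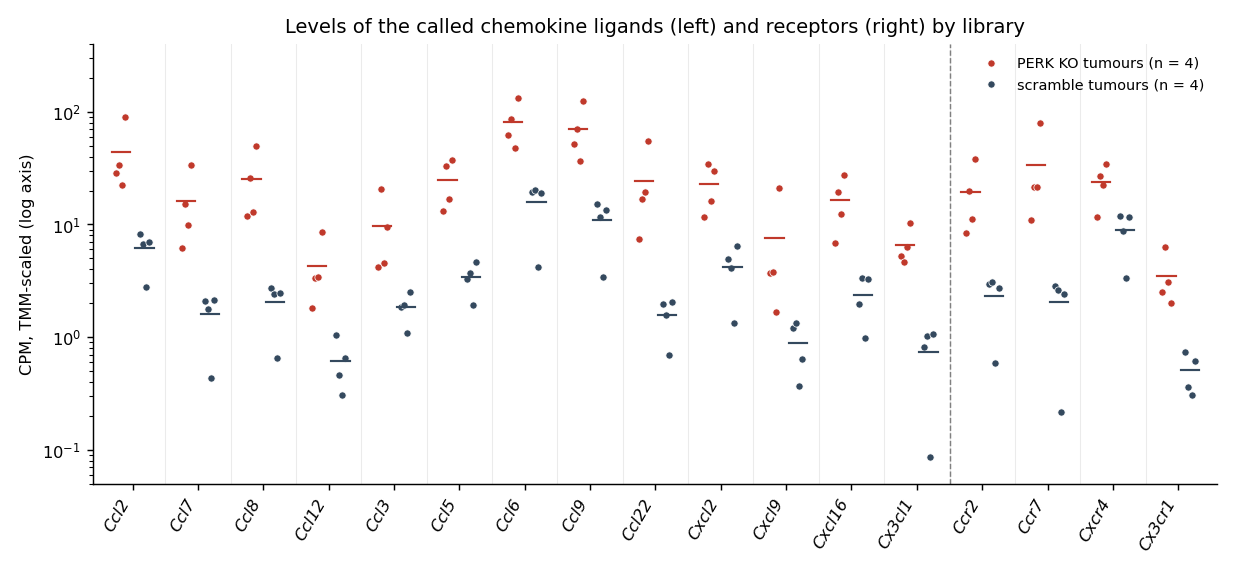
Level of the 17 called members described here in CPM (log axis), with 1 point per library, PERK knockout tumours (n = 4) left of scramble tumours (n = 4) for each gene and a bar at the group mean. The groups overlap at Cxcr4 and are apart at the other genes plotted, and the lowest scramble point is scramble library 4 at each of them.

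Ccr2, the receptor of inflammatory monocytes, rose together with Ccl2, Ccl7, Ccl8 and Ccl12, the monocyte chemoattractant proteins that bind it. Ccr2 (ENSMUSG00000049103.14, mm10 chromosome 9, 124101950 to 124113557) had 8.37, 19.9, 11.1 and 37.9 CPM in PERK knockout libraries 1 to 4, and 2.93, 3.07, 0.585 and 2.71 CPM in scramble libraries 2 to 5. Every PERK knockout library lay above every scramble library, with an 8.31-fold difference of means (log2 change 3.05, SE 0.60, edgeR adjusted p = 0.0110).

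Ccl2 (ENSMUSG00000035385.5) had 28.7, 33.4, 22.5 and 90.1 CPM in the PERK knockout libraries and 8.15, 6.77, 2.77 and 6.97 CPM in the scramble libraries. Ccl7 had 6.16, 15.1, 9.89 and 33.5 CPM in PERK knockout against 2.10, 1.77, 0.433 and 2.13 CPM in scramble libraries. At both genes the groups were apart, with PERK knockout library 4 highest and scramble library 4 lowest. The log2 change was 2.82 for Ccl2 (SE 0.51, edgeR adjusted p = 0.00984) and 3.32 for Ccl7 (SE 0.61, edgeR adjusted p = 0.00740). Without PERK knockout library 4 these changes were 2.19 and 2.68, and both calls held.

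Ccl8, which in the mouse is also known as an agonist of Ccr8, had 11.8, 26.1, 13 and 50.2 CPM in PERK knockout and 2.72, 2.40, 0.650 and 2.46 CPM in scramble libraries. Ccl12, a ligand without a direct human counterpart, was the lowest of the 4, at 1.81, 3.37, 3.39 and 8.63 CPM in PERK knockout and 1.05, 0.464, 0.303 and 0.658 CPM in scramble libraries. Neither gene overlapped between the groups. The log2 change was 3.61 for Ccl8 (SE 0.59, edgeR adjusted p = 0.00587) and 2.79 for Ccl12 (SE 0.61, edgeR adjusted p = 0.0117, and 2.20 without PERK knockout library 4). The 4 ligand genes lie on chromosome 11 between 82035571 and 82116799. Between Ccl7 and Ccl12 lies the eosinophil attractant Ccl11, which was near the floor and not called (0.783 ± 0.795 CPM in PERK knockout and 0.288 ± 0.510 CPM in scramble tumours, SD, n = 4 each; edgeR adjusted p = 0.692). Ccl1 of the same cluster, a ligand of Ccr8, had 17 counts, all in PERK knockout library 4, and Ccr8 had 26 counts in PERK knockout library 3 and 2 counts in scramble library 2, so neither was tested.

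The ligands of Ccr1, a receptor of monocytes and macrophages, formed a second set together with Ccl4. Ccl5 (RANTES; ENSMUSG00000035042.2) had 13.2, 32.8, 16.8 and 37.3 CPM in PERK knockout and 3.26, 3.73, 1.93 and 4.66 CPM in scramble libraries. It had the smallest adjusted p of the family (log2 change 2.88, SE 0.37, edgeR adjusted p = 0.00113), and the groups did not overlap. Ccl3 (MIP-1 alpha) had 4.15, 20.7, 4.53 and 9.51 CPM in PERK knockout and 1.85, 1.94, 1.08 and 2.5 CPM in scramble libraries. It too did not overlap, with PERK knockout library 2 far above the other PERK knockout libraries (log2 change 2.40, SE 0.51, edgeR adjusted p = 0.0108; 1.73 without that library). Ccl4 (MIP-1 beta), the close relative of Ccl3, overlapped between the groups at 0.737, 3.27, 0.975 and 4.24 CPM in PERK knockout and 1.19, 0.773, 0 and 0.542 CPM in scramble libraries (log2 change 1.87, SE 1.05, edgeR adjusted p = 0.292).

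Ccl6 and Ccl9, ligands of Ccr1 in the mouse, had the highest CPM of the CC ligands in PERK knockout tumours. In scramble tumours the mean of Ccl25 (17.3 CPM) was above those of Ccl6 (15.7 CPM) and Ccl9 (10.9 CPM). By library, however, Ccl25 exceeded Ccl6 only in scramble library 4 (18.3 against 4.18 CPM). Ccl6 had 62.0, 85.9, 47.4 and 132 CPM in PERK knockout and 19.3, 20.3, 4.18 and 19.1 CPM in scramble libraries. Ccl9 had 51.3, 70.3, 36.5 and 126 CPM in PERK knockout and 15.1, 11.7, 3.44 and 13.4 CPM in scramble libraries. Scramble library 4 was the low one at both, and the groups were apart. Ccl6 rose by 2.38 (SE 0.53, edgeR adjusted p = 0.0241) and Ccl9 by 2.70 (SE 0.54, edgeR adjusted p = 0.0161). The Ccl6 call ended without scramble library 2, 3 or 5 and without the filter, and the Ccl9 call without scramble library 3 (the highest edgeR adjusted p was 0.0669 for Ccl6 and 0.0616 for Ccl9). Ccl5, Ccl9, Ccl6, Ccl3 and Ccl4 lie together on chromosome 11, 83525778 to 83664683, and 4 of these 5 rose.

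Ccr1 had 4.39, 3.32, 2.37 and 11.7 CPM in PERK knockout and 1.96, 2.06, 0.563 and 1.68 CPM in scramble libraries. Its groups were apart too, but the change of 1.79 (SE 0.57) missed the threshold (edgeR adjusted p = 0.0567). It was called with DESeq2, without the filter and without PERK knockout library 3, and the change was 1.09 without PERK knockout library 4. Ccr1 lies near Ccr2 on chromosome 9, and Ccr9, Cxcr6, Ccr1l1 and Ccr3 of the same region did not pass the filter.

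The largest changes among the called members belonged to Ccr7, the homing receptor of mature dendritic cells and naive T cells, and Ccl22, which dendritic cells and macrophages secrete. Ccr7 (ENSMUSG00000037944.8, chromosome 11, 99144196 to 99155077) had 11, 21.4, 21.4 and 79.8 CPM in PERK knockout and 2.84, 2.64, 0.217 and 2.44 CPM in scramble libraries. Ccl22 (ENSMUSG00000031779.3) had 7.44, 16.8, 19.4 and 54.5 CPM in PERK knockout and 1.96, 1.58, 0.693 and 2.05 CPM in scramble libraries. Both were apart between the groups, again with the libraries numbered 4 at the extremes.

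Ccr7 rose by 4.03 (SE 0.88, edgeR adjusted p = 0.0223) and Ccl22 by 3.96 (SE 0.64, edgeR adjusted p = 0.00541). Without PERK knockout library 4 the changes were 3.13 and 3.21, and the Ccr7 call ended without scramble library 2, 3 or 5 (highest edgeR adjusted p = 0.0732), without the filter (edgeR adjusted p = 0.0623) and with limma-voom (adjusted p = 0.0520). The ligands of Ccr7 were not seen: Ccl19, Ccl21a and Ccl21b had no count in any library. Ccl21 exists in near-identical gene copies in the mouse, so reads matching several copies may have been left out of the counts. Ccr4, the receptor of Ccl22, had 35 counts over the PERK knockout libraries and 22 over the scramble libraries and was not tested. Ccl17, the other Ccr4 ligand and a neighbour of Ccl22 on chromosome 8, had 0, 79, 39 and 53 counts in PERK knockout and 8, 8, 0 and 0 counts in scramble libraries, and failed the filter. Of 9 dendritic cell markers, 6 of 8 tested rose by edgeR and 3 of 8 by limma-voom. Over all genes tested, these tools called 7.66% and 6.48% higher. The list includes Ccr7 and Ccl22 themselves, which are among the 6, and the others of the 6 were Flt3, Itgax, Xcr1 and Clec9a. The summed level of the list, Ccr7 and Ccl22 included, was 56.2 to 294 CPM in PERK knockout and 6.46 to 16.9 CPM in scramble tumours. The part of these markers in the result was not tested.

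Cx3cl1 (fractalkine), a ligand tethered to endothelial, epithelial and neural cells, and Cx3cr1, its receptor on patrolling monocytes and tissue macrophages, both rose. Cx3cl1 had 5.26, 4.68, 6.32 and 10.3 CPM in PERK knockout and 0.815, 1.01, 0.0866 and 1.06 CPM in scramble libraries. In scramble library 4, with 4 counts, it was under the minimum of the filter. Cx3cr1 had 2.51, 6.37, 3.07 and 2.00 CPM in PERK knockout and 0.742, 0.361, 0.303 and 0.619 CPM in scramble libraries. The groups were apart at both, and Cx3cr1 was the only called member at which PERK knockout library 4 was lowest of its group. The log2 change was 3.15 for Cx3cl1 (SE 0.61, edgeR adjusted p = 0.00726) and 2.78 for Cx3cr1 (SE 0.58, edgeR adjusted p = 0.00990).

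Cxcl16, the other membrane-tethered chemokine, had 6.90, 19.3, 12.3 and 27.7 CPM in PERK knockout and 1.96, 3.31, 0.975 and 3.31 CPM in scramble libraries, without overlap. It rose by 2.79 (SE 0.47, edgeR adjusted p = 0.00413). Its receptor Cxcr6 was nearly confined to PERK knockout library 4, with 87 counts there, 0 in the other 3 PERK knockout libraries, and 0, 5, 0 and 2 in the scramble libraries; it was not tested. Cxcl16 shares exonic bases with Zmynd15, and Cx3cr1 with Gm33858, on the opposite strand. The strand setting of the counting is not given in the sources used here, so reads of these partners cannot be told apart.

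Cxcl2 belongs to the ligands of Cxcr2, which draw neutrophils, and edgeR called it alone among them. It had 11.7, 34.4, 16.1 and 29.6 CPM in PERK knockout and 4.89, 4.14, 1.32 and 6.48 CPM in scramble libraries, with no overlap (log2 change 2.45, SE 0.48, edgeR adjusted p = 0.0103). Its neighbour Cxcl1 overlapped, at 0.469, 0, 0.720 and 3.61 CPM in PERK knockout and 1.5, 0.275, 0.0217 and 0.155 CPM in scramble libraries (log2 change 1.29, SE 1.47, edgeR adjusted p = 0.663). Cxcl3 and Cxcl5 averaged 0.940 ± 1.49 and 0.605 ± 0.523 CPM in PERK knockout tumours and 0.438 ± 0.292 and 0.258 ± 0.351 CPM in scramble tumours (SD, n = 4 each), and were not called. Cxcl15, a chemokine of the lung, was listed at 0 in 1 PERK knockout and 2 scramble libraries and reached at most 3.22 CPM in PERK knockout and 0.271 CPM in scramble tumours. Its log2 change of 4.07 (SE 1.66) was not called (edgeR adjusted p = 0.137), but passed with DESeq2 (adjusted p = 0.0409) and, in edgeR, without PERK knockout library 2 (adjusted p = 0.0492). Cxcr2 had at most 2 counts in a PERK knockout library and 11 in a scramble library, and Cxcr1 had none. Of 7 neutrophil markers, Cxcr2 included, 3 were tested and 1 rose, Csf3r, the receptor of the cytokine G-CSF, with 5.01 CPM on average in PERK knockout and 0.759 CPM in scramble tumours (log2 change 2.72, SE 0.75, edgeR adjusted p = 0.0337). With limma-voom 0 were called and 2 had an unadjusted p under 0.05. Their summed level was 2.34 to 13.5 CPM in PERK knockout and 0.580 to 2.28 CPM in scramble tumours, and Ly6g was at 0 in every library. Their part in the Cxcl2 values was not tested.

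The stretches just before the starts of Cxcl2, Cxcl1 and Cxcl3 are shown because these 3 neighbours on chromosome 5 share a sequence and Cxcl2 alone of them was called. They are RefSeq promoter sequence of GRCm38.p6, written 5′ to 3′ on the plus strand from base -120 to base -41 relative to the start site, at chr5:90903779-90903858, chr5:90891125-90891204 and chr5:90785981-90786060. Capitals mark matches, on either strand and merged where they overlap, to GGGNNNNNCC, a loose pattern of NF-kappaB sites.
Cxcl2: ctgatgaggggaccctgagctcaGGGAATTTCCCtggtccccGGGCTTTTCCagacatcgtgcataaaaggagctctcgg
Cxcl1: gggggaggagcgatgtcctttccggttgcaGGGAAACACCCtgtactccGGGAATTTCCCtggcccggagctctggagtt
Cxcl3: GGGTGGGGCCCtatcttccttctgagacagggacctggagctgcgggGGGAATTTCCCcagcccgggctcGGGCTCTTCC
All 3 stretches hold GGGAATTTCC. The loose pattern lay in 50.8% of all 32851 promoter windows of 300 bases, in 5 of the 12 called members with a window and in 8 of the 12 tested members that were not called and had one.

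Cxcl9 and Cxcl10, neighbouring genes on chromosome 5 induced by interferon, bind the same receptor, Cxcr3, but their values differed. Cxcl9 (ENSMUSG00000029417.9) had 3.68, 3.76, 1.67 and 21.1 CPM in PERK knockout and 1.19, 1.34, 0.368 and 0.638 CPM in scramble libraries. The groups were apart, though PERK knockout library 3 came close to scramble library 3. Cxcl9 rose by 3.08 (SE 0.77, edgeR adjusted p = 0.0231), and the call ended without PERK knockout library 4, where the change was 1.77, and without any 1 of the 4 scramble libraries (highest edgeR adjusted p = 0.0802), and with limma-voom (adjusted p = 0.154).

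Cxcl10 (ENSMUSG00000034855.13) had 89.7, 71.4, 73.3 and 120 CPM in PERK knockout and 69.4, 88.2, 69.6 and 99.3 CPM in scramble libraries. The groups overlapped, with PERK knockout library 4 alone above every scramble library, and the change was 0.12 (SE 0.17, edgeR adjusted p = 0.749). In this RNA of c-Kit-enriched cells, Cxcl10 held 50.5% of the summed ligand CPM in scramble tumours, the largest share, against 18.4% in PERK knockout tumours. It shares exonic bases with Art3 on the opposite strand. Cxcr3 had 2.65, 5.12, 3.55 and 2.99 CPM in PERK knockout and 3.29, 4.24, 3.55 and 5.13 CPM in scramble libraries. Its groups overlapped, with PERK knockout libraries 1 and 4 below every scramble library (log2 change -0.18, SE 0.33, edgeR adjusted p = 0.813). Of 9 T cell markers 5 were tested and 0 called by edgeR or limma-voom, 1 by DESeq2, and 1 had an unadjusted p under 0.05 in edgeR; their summed level was 3.01 to 30.7 CPM in PERK knockout and 1.26 to 3.16 CPM in scramble tumours.

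The promoter windows of this pair are shown because the neighbours share inducer and receptor but not their values. Each runs from base -250 to base 50 around the RefSeq start in GRCm38.p6, written 5′ to 3′ on the minus strand, for Cxcl9 from chr5:92328030-92328329 and for Cxcl10 from chr5:92348840-92349139. Capitals mark matches on either strand to GGGNNNNNCC and to GAAANNGAAA, an interferon-stimulated response element.
Cxcl9: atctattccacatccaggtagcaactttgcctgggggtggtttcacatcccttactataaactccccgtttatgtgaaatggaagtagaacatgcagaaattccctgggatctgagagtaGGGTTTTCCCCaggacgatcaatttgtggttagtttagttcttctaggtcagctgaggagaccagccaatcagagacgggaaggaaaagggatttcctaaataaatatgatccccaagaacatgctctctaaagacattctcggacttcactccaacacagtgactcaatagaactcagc
Cxcl10: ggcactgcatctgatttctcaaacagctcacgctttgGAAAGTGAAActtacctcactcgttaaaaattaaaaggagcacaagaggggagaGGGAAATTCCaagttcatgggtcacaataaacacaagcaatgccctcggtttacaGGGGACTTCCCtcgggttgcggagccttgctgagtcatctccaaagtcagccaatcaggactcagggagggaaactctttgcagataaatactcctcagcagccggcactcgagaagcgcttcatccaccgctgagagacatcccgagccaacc
The Cxcl10 window held GAAAGTGAAA from base -213 to base -204, and the Cxcl9 window held no match to that pattern, which lay in 3.44% of all windows. Among members with a window, 0 of 12 called and 2 of 12 tested but not called, Cxcl10 and Cxcl14, held it. These matches are a description of the letters only.

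Cxcr4, the receptor that holds blood progenitors and other leukocytes in tissue, was the call nearest the threshold. It had 11.7, 27.0, 22.3 and 34.5 CPM in PERK knockout and 12.0, 8.77, 3.31 and 11.7 CPM in scramble libraries. The groups overlapped, since PERK knockout library 1 lay below scramble library 2. The change was 1.42 (SE 0.41, edgeR adjusted p = 0.0479) and the gene kept its call only without PERK knockout library 1 or scramble library 4, losing it without any other library (highest edgeR adjusted p = 0.133), with library totals as the scale (0.0505) and without the filter (0.139). Its ligand Cxcl12 had 3.12, 2.07, 5.15 and 5.90 CPM in PERK knockout and 2.08, 3.28, 0.585 and 2.63 CPM in scramble libraries, overlapping and not called (log2 change 0.92, SE 0.53, edgeR adjusted p = 0.311). The atypical receptor Ackr3, which takes up Cxcl12, was at 3.34 ± 0.976 CPM in PERK knockout and 3.86 ± 1.78 CPM in scramble tumours (SD, n = 4 each; edgeR adjusted p = 0.836).

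**Figure D2:**
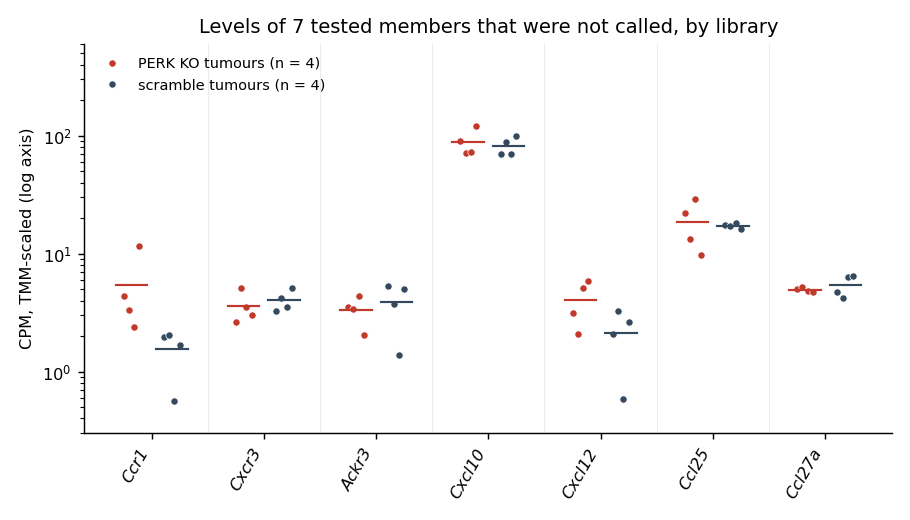
Level in CPM (log axis) of the tested receptors without a call (Ccr1, Cxcr3, Ackr3) and of the ligands without a call whose mean was above 1 CPM in both groups, with 1 point per library, PERK knockout tumours (n = 4) left of scramble tumours (n = 4) and a bar at the mean. Cxcl10 lay between 71.4 and 120 CPM in PERK knockout and between 69.4 and 99.3 CPM in scramble tumours, and only Ccr1 had groups that did not overlap.

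The remaining ligands without a call fell into tissue chemokines and low genes. Ccl25, known for homing to the gut, was at 18.5 ± 8.64 CPM in PERK knockout and 17.3 ± 0.856 CPM in scramble tumours, and Ccl27a, a skin chemokine, at 4.95 ± 0.203 CPM in PERK knockout and 5.45 ± 1.15 CPM in scramble tumours (SD, n = 4 each). Both share exonic bases with a gene on the opposite strand, Elavl1 and Il11ra1, and neither passed (edgeR adjusted p = 0.877 and 0.813). Their receptors Ccr9 and Ccr10 had 51 and 0 counts over the PERK knockout libraries and 8 and 0 over the scramble libraries. Ccl24, a ligand of the eosinophil receptor Ccr3, had higher levels in every PERK knockout library (0.364 to 1.34 CPM) than in any scramble library (0 to 0.271 CPM), but was not called (edgeR adjusted p = 0.178). Ccl28 and Cxcl14 also were not called.

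**Figure D3:**
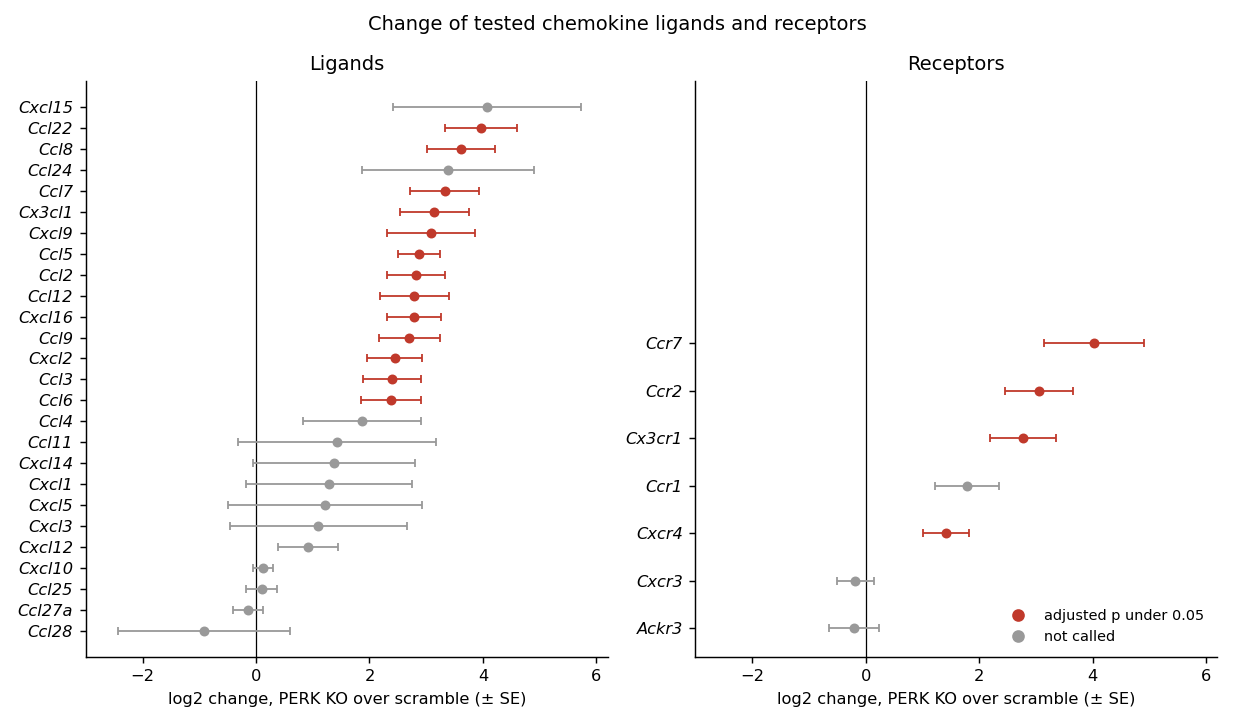
The log2 change (PERK knockout over scramble, point) and its standard error (bar) for the 26 tested ligands (left) and the tested receptors described here, Ackr3 included (right), with called members in red. The called changes run from 1.42 for Cxcr4 to 4.03 for Ccr7, and 4 changes are below 0.

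Not tested were 24 members, 10 ligands and 14 receptors. Of these, 9 had no count at all (Ackr1, Ccl19, Ccl20, Ccl21a, Ccl21b, Ccl26, Ccl27b, Ccr10 and Cxcr1) and 15 had some, at most 87 counts in a library. Counts were seen in PERK knockout libraries alone for 4 of them (Ccl1, Ccr1l1, Cxcl13 and Cxcl17), and in scramble libraries alone for Ackr4, a scavenger of Ccl19, Ccl21 and Ccl25, which had 11, 9, 0 and 10 counts. Ackr2, the scavenger of inflammatory CC ligands, had 0, 0, 10 and 0 counts in PERK knockout and 33, 32, 2 and 9 counts in scramble libraries. Cxcr5, the receptor of Cxcl13 on B cells, had 0, 0, 8 and 79 counts in PERK knockout and 0, 4, 0 and 0 counts in scramble libraries.

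Ligand and receptor pairs were counted without those of the member not reported here. This left 40 pairs with both genes in the family and 14 with both tested. In 5 of the 14 both partners rose: Ccr2 with each of its 4 ligands, and Cx3cr1 with Cx3cl1. In 6 pairs the ligand rose and the tested receptor was not called, 5 of them with Ccr1 and the other Cxcr3 with Cxcl9. In 1 of the 14 the receptor alone rose, Cxcr4 with Cxcl12. In 4 further pairs the ligand rose and the receptor was too low to test (Ccr4 with Ccl22, Ccr8 with Ccl8, Cxcr2 with Cxcl2, Cxcr6 with Cxcl16). Pairs share genes and so are not independent of each other.

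To compare levels between genes, CPM was divided by the exonic length of the gene (CPM per kb). In PERK knockout tumours Ccl8 stood highest at 49.5 CPM per kb, followed by Ccl6 (45.6), Cxcl10 (39.4) and Ccl2 (38.4). In scramble tumours the order was Cxcl10 at 36.2 CPM per kb, then Ccl6 (8.76), Ccl2 (5.42) and Cxcr4 (4.95). Among receptors Ccr7 was highest in PERK knockout tumours (16.9 CPM per kb) and ranked below Cxcr4 and Cxcr3 in scramble tumours (1.03 CPM per kb). Summed over all ligands, the level was 483 ± 214 CPM in PERK knockout and 162 ± 33.7 CPM in scramble tumours, and summed over receptors it was 102 ± 63.4 CPM in PERK knockout and 22.6 ± 7.89 CPM in scramble tumours (SD, n = 4 each). Ccl6, Ccl9 and Ccl2 together took 40.7% of the ligand CPM in PERK knockout and 20.3% in scramble tumours.

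Since markers of leukocytes were higher in PERK knockout tumours as well, each member's CPM was set against the geometric mean of the 11 leukocyte markers in its own library, a scale chosen after seeing the data. The marker level is itself higher in every PERK knockout library, and on this scale 78.5% of all genes tested were lower in every PERK knockout library than in any scramble library, and 0.852% were higher. Of the 18 called members, 14 overlapped between the groups. Ccl22, Ccr7 and Ccl8 were higher in every PERK knockout library, by 2.20, 2.05 and 1.64 times at the medians, and Cxcr4 was lower in every one, at 0.438 times the scramble median. Of the other 16 tested members 0 were higher without overlap and 6 were lower, a smaller share than that of all genes; Cxcl10 and Cxcr3, whose CPM overlapped between the groups, were among these at 0.189 and 0.196 times the scramble median. With Ptprc, which encodes the leukocyte antigen CD45, as the only marker, 4 of the 18 were higher and 2 lower without overlap, against 0.816% and 77.2% of all genes. These ratios carry no test, and they do not tell which cells made the transcripts. Other cell markers stood as follows. Of 9 macrophage markers 8 rose (210 to 617 CPM summed in PERK knockout, 55.3 to 111 CPM in scramble tumours). Of 7 monocyte markers, Ccr2 included, 5 rose (80.5 to 217 CPM in PERK knockout, 11.1 to 30.0 CPM in scramble tumours). Of 8 mast cell markers 8 rose (689 to 3066 CPM in PERK knockout, 18.6 to 159 CPM in scramble tumours). With limma-voom 8 macrophage, 3 monocyte and 7 mast cell markers were called higher. The part of these cells in the chemokine values was not tested.

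**Figure D4:**
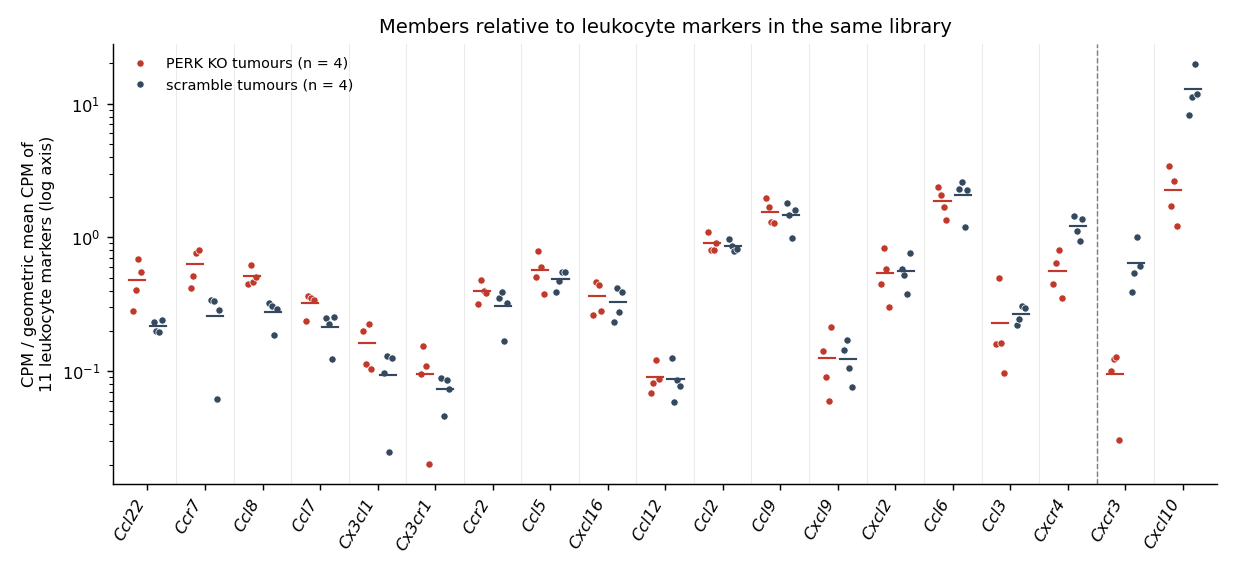
CPM of the called members described here, and of Cxcr3 and Cxcl10 at the right, divided by the geometric mean CPM of 11 leukocyte markers in the same library (log axis), with PERK knockout tumours (n = 4) left of scramble tumours (n = 4) and a bar at the mean. Ccl22, Ccr7 and Ccl8 stay apart with PERK knockout above, the other called members but Cxcr4 overlap, and Cxcr4, Cxcr3 and Cxcl10 are lower in PERK knockout tumours, as are 78.5% of all genes on this scale.

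Genes that carry the signal of chemokine receptors inside the cell were drawn from a list of 54, all tested. Of these 29 rose and 0 fell by edgeR, which called 7.66% of all genes tested higher and 6.13% lower. The median log2 change of the list was 0.85. At an unadjusted p under 0.05, 3 of its genes were lower. DESeq2 and limma-voom each called 1 lower, the G protein subunit Gnb1. The smallest adjusted p among those that rose belonged to Prkcb, a protein kinase C (log2 change 3.10, SE 0.43), Ptk2b, a kinase activated by calcium (1.53, SE 0.23), Lyn, a Src kinase of myeloid cells (1.97, SE 0.30), and Grk3, a kinase that desensitizes receptors (3.70, SE 0.56), with edgeR adjusted p = 0.00153, 0.00226, 0.00232 and 0.00232. The count for this list was 18 without scramble library 3 and 19 without scramble library 5. Over all genes tested, 3.69% and 4.45% were called higher in these runs.

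Of 22 regulators known to induce chemokines 17 were tested, 5 rose and 1 fell, against 7.66% and 6.13% of all genes tested. Il1b, an inflammatory cytokine, rose by 3.81 (SE 0.76, edgeR adjusted p = 0.0162), Nfkbia, the NF-kappaB inhibitor that NF-kappaB itself induces, by 1.61 (SE 0.27, edgeR adjusted p = 0.00512), and Cebpb, a myeloid transcription factor, by 1.75 (SE 0.36, edgeR adjusted p = 0.00897). Hif1a, the hypoxia regulator, fell by 0.45 (SE 0.09, edgeR adjusted p = 0.00678). Ifnb1 and Il17a had no count in any library, and Ifng had 51 counts over the PERK knockout libraries and 3 over the scramble libraries.

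Leaving out each library in turn gave between 13 and 18 called members, and between 3.69% and 8.01% of all genes tested called higher. The call held in all 8 such sets for 13 of the 18, and ended in at least 1 set for Ccl6, Ccl9, Ccr7, Cxcl9 and Cxcr4. The fewest, 13, were called without scramble library 3, where the share of all genes called higher was also lowest (3.69%, against 7.66% with all 8 libraries).

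**Figure D5:**
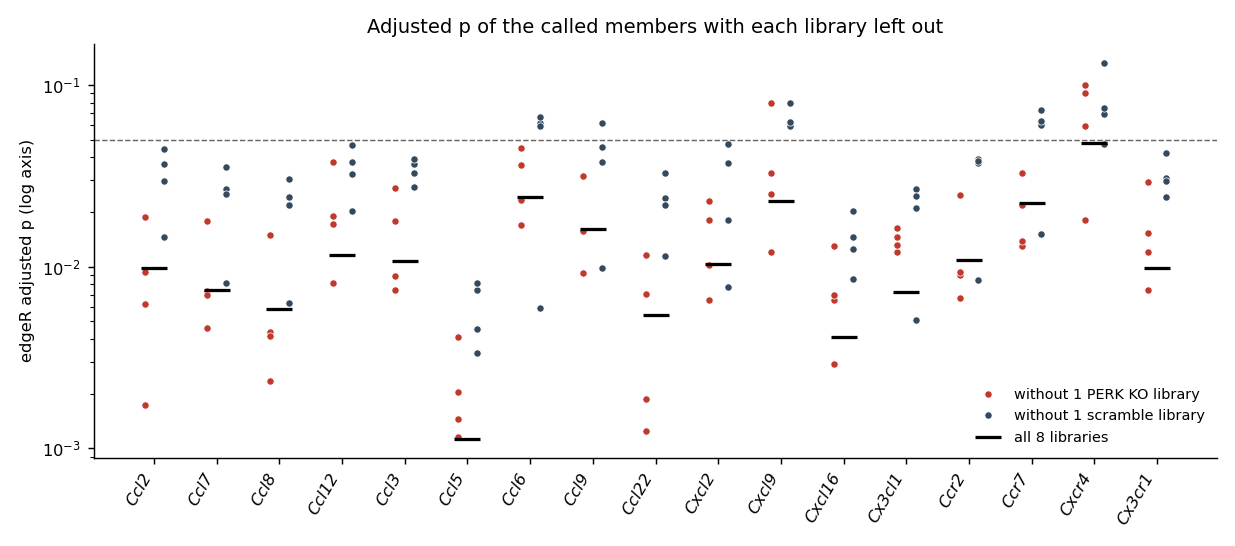
edgeR adjusted p (log axis) of the called members described here with all 8 libraries (black dash), without 1 PERK knockout library (red, left) and without 1 scramble library (dark blue, right). The dashed line is the threshold of 0.05, and 5 genes have points above it.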

How the data were processed

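The deposited raw table holds counts, whole numbers of reads per gene and library, made by the authors with bcl2fastq, STAR 2.5.3a and HTSeq 0.6.1 on mm10, per the submitters' processing notes, which give no settings. The deposited normalized table was not used. The 58 members were matched by identifier in GENCODE M21, from which positions, exonic lengths and overlaps come. Of the members, 1 is counted in the totals of members, left out of the counts of pairs and not otherwise reported here. The members and gene lists were chosen with earlier results of these data known.

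Genes were filtered with filterByExpr by group (minimum count 10, here 0.216 CPM), scaled with TMM and tested with the robust quasi-likelihood test of edgeR 4.0.16 (R 4.3.3 with the data.table package, version 1.17.8), PERK knockout over scramble, with Benjamini-Hochberg adjustment over all 16662 genes. The biological coefficient of variation was 46.3%. The script was tested on simulated data. Alternatives were DESeq2 1.42.0, limma 3.58.1 (voom), other scalings and filters, a fit that is not robust, a replicate block and the omission of each library. Levels are given for called members and the partners on their axes; from the other lists, up to 4 called genes with the smallest adjusted p are named. Promoter windows (RefSeq, GRCm38.p6) were found for 44 members. Plots used Python 3.11.15, numpy 2.4.6, pandas 2.3.3 and matplotlib 3.10.9.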

Additional observations from a re-analysis of the deposited data

Results flagged for a closer look

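Within a group of 4, a library was singled out by Dixon's test at 95%, which sets its gap to the nearest other library against the group's range. Of 70 groups of values examined, those of the tested members and of Eif2ak3, 10 held such a library, where chance gives about 5% of groups. All 10 were groups of members. Scramble library 4 was the low one at Ccl6 (4.18 CPM), Ccl8 (0.650 CPM), Ccr2 (0.585 CPM) and Ccr7 (0.217 CPM). PERK knockout library 4 was the high one at Ccl2 (90.1 CPM), Ccr7 (79.8 CPM) and Cxcl9 (21.1 CPM). The others were the high values of scramble library 2 at Ccl11 (1.05 CPM) and Cxcl1 (1.5 CPM), and of scramble library 5 at Ccl24 (0.271 CPM). The leukocyte marker mean was likewise highest in PERK knockout library 4 (98.7 CPM) and lowest in scramble library 4 (3.51 CPM). Its part in these values was not tested.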

How the results depend on the processing

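Over 8 other scalings, filters and tools, 16 to 20 members were called higher (20 with DESeq2, 16 with limma-voom and without the filter). Over all genes tested the share was 4.26% (without the filter) to 11% (DESeq2). Of the 18 called members 14 kept their call in all 8, all but Ccl6, Ccr7, Cxcl9 and Cxcr4. None of the 18 changed direction in any alternative run. Leaving out each library gave 13 to 18 members and 18 to 31 signalling genes called higher, and 0 to 1 signalling genes called lower. Over all genes tested, 3.69% to 8.01% were called higher in these runs. Library totals, DESeq2 and limma-voom each gave 1 signalling gene called lower.

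Whether the shared replicate numbers 2, 3 and 4 pair the libraries is not stated in the labels. At these numbers, deviations from the group means correlated at -0.04, 0.11 and -0.30. With so few libraries these values cannot settle it. With these numbers as a replicate block, 1 member (Ccl5) and 3 signalling genes were called higher. In the same 6 libraries without the block, a setting added after seeing the data, these counts were 17 and 25. Over all genes tested, 0.821% were called higher with the block and 5.4% without it. The cause was not tested.

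Among members without a call, the log2 change turned sign with the replicate block for Ackr3 (0.0892), Ccl25 (-0.13), Ccl27a (0.0116), Cxcl3 (-0.12) and Cxcr3 (0.0846, and 0.12 in the same libraries without the block). With limma-voom it did so for Ccl25 (-0.0242) and Cxcl3 (-1.12), and on leaving out 1 library the change ran from -0.21 to 0.31 for Ccl25, -1.06 to 1.52 for Cxcl3, -0.31 to 2.96 for Cxcl1 and -0.0677 to 0.22 for Cxcl10, lowest without PERK knockout library 3 for Ccl25 and Cxcl3 and without PERK knockout library 4 for Cxcl1 and Cxcl10. The cause was not tested. Over all genes, 55.5% of calls were higher with TMM, 68.7% with upper-quartile factors and 47.7% with library totals. Low members such as Ccl11, Ccl24, Cxcl5 and Cxcl15 carry SEs above 1 on the log2 scale, so their fold changes are loosely set.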

Other observations

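Of 17 other genes of the chemokine field that the symbol rule leaves out, 9 rose and 1 fell by edgeR. Over all genes tested, edgeR called 7.66% higher and 6.13% lower. With limma-voom 5 of the 17 were called higher and 1 lower. Ccrl2, a receptor that presents chemerin and gives no chemokine signal, had 5.13, 12.7, 4.34 and 10.5 CPM in PERK knockout libraries 1 to 4 and 0.778, 0.859, 0.693 and 0.793 CPM in scramble libraries 2 to 5. Its scramble values lay close together and far under the PERK knockout values (log2 change 3.38, SE 0.41, edgeR adjusted p = 0.000798). Dpp4, a protease that trims chemokines, rose by 3.97 (SE 0.54, edgeR adjusted p = 0.00133), and Pf4, a platelet chemokine, by 2.58 (SE 0.40, edgeR adjusted p = 0.00416). Gpr183, which guides dendritic and B cells along oxysterols, rose by 3.20 (SE 0.60, edgeR adjusted p = 0.00587). Mif, a cytokine that binds Cxcr4 and Cd74, fell to 483 ± 41.3 CPM in PERK knockout tumours, against 621 ± 55.0 CPM in scramble tumours (SD, n = 4 each; edgeR adjusted p = 0.0235).

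Cxcl11, the third ligand of Cxcr3, is annotated as a polymorphic pseudogene in GENCODE and so fell outside the rule. It had 1.34, 1.63, 1.60 and 0.572 CPM in PERK knockout and 0.326, 0.549, 0.0217 and 0.522 CPM in scramble libraries. The groups did not overlap, PERK knockout library 4 lay just above scramble library 3, and the change was not called (log2 change 1.85, SE 0.99, edgeR adjusted p = 0.270).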
